A study of Mus musculus with 30 samples.

Results

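The genes described are 7 genes of the complement system and the acute phase response in mouse kidney: the complement genes C3, C4b, Cfb and Cfd, the complement inhibitor gene Serping1, and the plasma protein genes Cp and Hp. They were chosen as a list of gene names, with earlier results of these data known. Every probe set that the array annotation assigns to one of them was taken, while the C1q chains were left out as macrophage genes. Of the 7 genes, 5 had a probe set, which gave 6 probe sets of 13041 on both array types. One of the 6, that of C4b, is annotated to the near-identical gene C4a as well, so its signal could not be assigned to either gene and is called the C4 probe set here. No probe set carried the name C3 or Cfd, and these genes were not analysed here.

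The study measured total RNA of kidneys of C57BL/6 mice, an inbred laboratory strain, in 3 groups of 5: mice aged 30 months on calorie restriction, old controls (aged 30 months, control-fed) and young controls (aged 5 months, control-fed). Calorie restriction is a lowered food intake, whose size and start are not given in the labels, nor is the sex of the mice. Each kidney was read on 2 types of 1-colour short-oligonucleotide arrays, 30 samples in all, with values of the 2 array types in a first and a second table. The titles number the kidneys 1 to 5 in each group and do not state that each number is a separate mouse, so the p-values measure only the spread between these samples, which may be technical. The number of arrays limits the precision.

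Complement is a cascade of plasma proteins that tags microbes and damaged cells and recruits immune cells. C4 acts in its classical and lectin pathways, factor B (Cfb) and factor D (Cfd) in its alternative pathway, and C3 is where the pathways meet. Acute phase proteins are plasma proteins, made mainly by liver, whose output changes during inflammation, and kidney tubules and resident immune cells can make several complement components themselves. In RefSeq, Cfb, C4a, C4b and C3 all lie on chromosome 17, Serping1 on 2, Cp on 3, Hp on 8 and Cfd on 10.

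The promoter of Cp is shown because Cp had the highest log2 age difference among these genes and is one of the 3 of the 7 in the RefSeq promoter table of build GRCm38.p6, beside C3 and Cfd, which have no values here. The stretch, chr3:19956999-19957298 on the plus strand, runs from 250 bases before to 50 bases after one of the annotated starts of Cp. The capitals mark its only match to the 3 patterns, which were searched on both strands. It matches the NF-kB pattern (GGG, any 5 bases, then CC) on the reverse strand and starts 146 bases before that annotated start. The RefSeq span of the Cp gene begins earlier, at 19956933, so the match lies within that span. The window of the other start of Cp in the table, chr3:19956804-19957103, held no match to any of the 3 patterns and is not shown. That window ends at the first base of the match above, so it could not hold it.
Cp promoter: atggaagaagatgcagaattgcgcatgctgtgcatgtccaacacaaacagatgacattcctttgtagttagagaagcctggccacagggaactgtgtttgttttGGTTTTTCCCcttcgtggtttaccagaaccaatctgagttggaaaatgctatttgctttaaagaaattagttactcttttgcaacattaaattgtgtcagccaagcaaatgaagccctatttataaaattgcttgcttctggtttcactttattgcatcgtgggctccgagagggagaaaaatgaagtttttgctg
The NF-kB pattern occurs in 50.8% of the 32851 promoters of that table, the STAT pattern TTCNNNGAA in 8.3% and the C/EBP pattern TTNNGNAAT in 11.5%. NF-kB, STAT and C/EBP factors carry acute phase signals in liver cells. A match describes letters in this window and shows no binding.

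Intensities are given per sample after scaling of each array to the trimmed mean of its table. Background, called the floor here, was taken as the root mean square of each table's negative values, which was 1103 for the first table and 1815 for the second. Each first-table array had 33.5% to 37.5% of its values above it, and each second-table array 23.9% to 27.7%. Log2 differences were taken after values under the floor had been raised to it, and 4518 probe sets above the floor on at least 5 arrays were tested together with limma at an adjusted p under 0.05. Intensities of different probe sets cannot be set against each other. Statements that groups did not overlap describe the 5 kidneys of each group. The share of all tested probe sets in which groups did not overlap was not counted. Of the proximal tubule markers, genes of the main cells of the kidney cortex, 6 were tested, all above the floor on all 15 arrays. Their phosphate transporter gene Slc34a1 had 62080.4 ± 7128 in calorie-restricted kidneys, 62973 ± 7749 in old controls and 64860.4 ± 2872 in young controls (SD, n = 5 each). Of the 6, Gatm, a gene of creatine synthesis, fell with age by 0.87 on the log2 scale (adjusted p = 0.00262). In calorie-restricted kidneys against young controls Gatm fell by 1.01 (0.000771) and Fbp1, a gene of glucose synthesis, by 0.64 (0.0108), and none passed with the diet by limma (0 at an unadjusted p under 0.05).

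One kidney stood apart. Young control 5 had an intensity of 22843 for Alb, the gene of the liver plasma protein albumin, against at most 2326 in any of the other 14 kidneys. Its value for Apoa2, an apolipoprotein gene of liver, was 12367 against at most 4038 elsewhere, and on its first-table array the fetuin gene Ahsg had 2464 against at most 901. Without this kidney the log2 age differences described below were 1.05 for Cp (limma adjusted p = 0.00695), 0.76 for Serping1 (0.00613) and 0.89 for the C4 probe set (0.0855), so the call of the C4 probe set was lost.

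Of the 6 probe sets, 4 lay above the floor on all 15 arrays of their table: the C4 probe set, both probe sets of Cfb and that of Serping1. The Cp probe set lay above it on 12 of 15 arrays, in all calorie-restricted and old control kidneys and in 2 of 5 young controls. The Hp probe set lay above it in 1 of 15 kidneys and was not tested.

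Cfb encodes factor B, the part of the alternative pathway convertase that cuts C3, and was measured on both tables. On the first table (probe set k01496_f_at) the intensities were 10633, 11310.2, 12782, 10307 and 12773 in calorie-restricted kidneys, 7858, 9980, 11120, 11610.1 and 12566 in old controls, and 8390, 6431, 7344, 8805 and 7602 in young controls. All calorie-restricted values lay above all young ones, the old controls overlapped both groups, and old control 1 was the lowest of the old kidneys. On the second table they were 14370, 13289, 14083, 15424 and 18575 in calorie-restricted kidneys, 9689, 14594, 10338, 16069 and 13791 in old controls, and 8022, 8336, 10341, 10392 and 10602 in young controls. The pattern was alike on the 2 array types: calorie-restricted and young kidneys did not overlap, and old control 1 was again lowest of the old kidneys.

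The C4 probe set (m17440_s_at, first table) reads the genes of complement C4, whose cleaved form binds targets by a thioester bond. Its intensities were 2241, 3706, 3412, 2362 and 1636 in calorie-restricted kidneys, 3146, 6740, 5220.1, 3475 and 4103 in old controls, and 2277, 3046, 2506, 1788 and 1585 in young controls. Every old control lay above every young control, and 3 of 5 calorie-restricted kidneys lay below the lowest old control.

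Serping1 encodes the C1 inhibitor, a serine protease inhibitor that stops the first step of the classical pathway and also acts on the kallikrein system. Its intensities (Y10386_f_at, second table) were 6297, 6815, 5168, 5760.5 and 6349 in calorie-restricted kidneys, 9328, 8998, 8508, 10184 and 6092 in old controls, and 4939, 5397, 5046, 4668 and 4464 in young controls. Old and young controls did not overlap. Old control 5 was well below the other old controls and was the one old control within the range of the calorie-restricted kidneys.

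Cp encodes ceruloplasmin, a copper-carrying ferroxidase of plasma. Its intensities on the second table were 2982, 2469, 4195, 2929 and 4315 in calorie-restricted kidneys, 3580, 5163, 2921, 5665 and 3451 in old controls, and 2117, 2024, 1695, 1790 and 1639 in young controls. Both groups of old kidneys lay wholly above the young controls, and they overlapped each other. Since 3 young values lay under the floor, the log2 differences from young kidneys are smaller than the unfloored values would give.

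Hp encodes haptoglobin, which binds free haemoglobin. Its intensities on the second table were 347, 497, 351, 658 and 305 in calorie-restricted kidneys, 646, 789, 351, 876 and 1683 in old controls, and -43, 294, 686, 878 and 1944 in young controls. The single value above the floor, 1944, was that of young control 5, the kidney with high Alb, and no difference is drawn from the others.

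**Figure D1:**
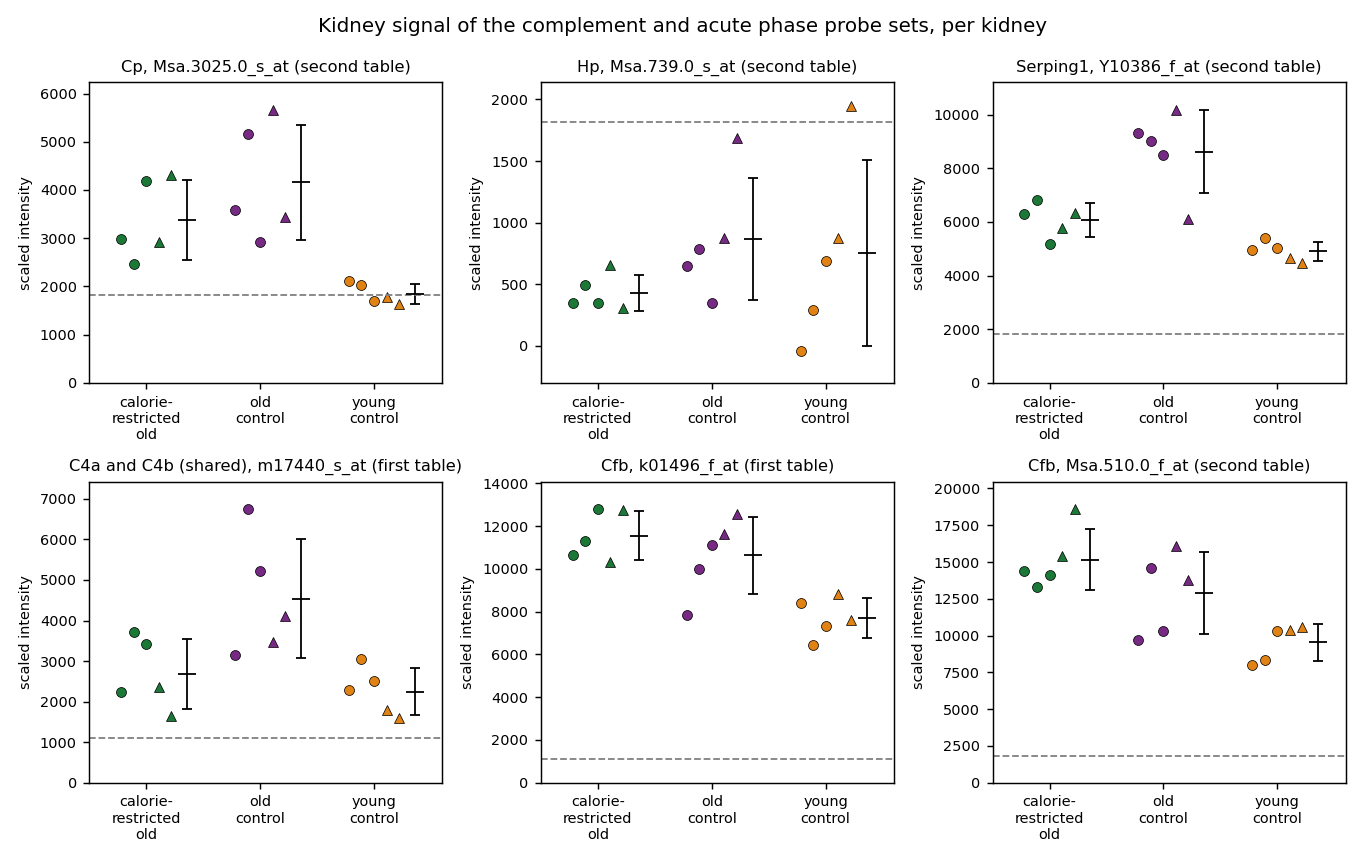
Scaled intensity (vertical axis, each panel with its own scale) of the 6 probe sets in calorie-restricted old, old control and young control kidneys, with circles for kidneys numbered 1 to 3, triangles for 4 and 5, a black bar for the mean and SD, and a dashed line at the floor. Old controls lie wholly above young controls for Cp, Serping1 and the C4 probe set, calorie-restricted kidneys lie wholly above young controls for Cp and both Cfb probe sets, and Hp lies under the floor in 14 of 15 kidneys. The share of all tested probe sets that separate in this way was not counted.

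The first comparison asked how kidneys of old controls differ from those of young controls. Cp, Serping1 and the C4 probe set rose with age, by 1.7 to 2.1 fold, and the 2 Cfb probe sets were 1.34 and 1.37 fold higher without passing the test. This is 3 of 5 tested probe sets called higher, against 2.99% of all 4518 tested (2.17% were called lower and 5.16% in either direction). Of the 5 probe sets 2 read Cfb, and the genes were chosen with earlier results of these data known, so this share is a description and no test. The share over all tested probe sets includes second-table targets with several probe sets. Such pairs stood in opposite order in old and young kidneys, as described below, and fewer probe sets were called without them. All 5 differences were positive, with a median log2 difference of 0.80, against -0.04 over all tested probe sets.

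Cp averaged 4156 ± 1188 in old controls and 1853 ± 208 in young controls (SD, n = 5 each), a log2 difference of 1.07 ± 0.20 (SE) with a limma adjusted p of 0.00202. Serping1 averaged 8622 ± 1541 in old controls and 4903 ± 359 in young controls, a log2 difference of 0.80 ± 0.14 with a limma adjusted p of 0.00156. Both rises were larger than the spread between kidneys. The C4 probe set averaged 4537 ± 1464 in old controls and 2241 ± 582 in young controls, a log2 difference of 1.0 ± 0.26 with a limma adjusted p of 0.0292. Its call was the least firm of the 3. It was lost without old control 2 (adjusted p = 0.0841), 3 (0.0758) or 5 (0.0519) and without young control 4 (0.0794) or 5 (0.0855), while its log2 difference stayed between 0.84 and 1.12 whichever kidney was left out.

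Cfb on the first table averaged 10627 ± 1807 in old controls and 7714 ± 928 in young controls, a log2 difference of 0.45 with a 95% interval of 0.15 to 0.75 and a limma adjusted p of 0.0903. It passed without old control 1, with a log2 difference of 0.56 and an adjusted p of 0.0196, and with the number set (kidneys 1 to 3 against 4 and 5, described below) as a term in the fit, with an adjusted p of 0.0471 at the same size. On the second table Cfb averaged 12896 ± 2765 in old controls and 9539 ± 1250 in young controls, a log2 difference of 0.42 with an interval of 0.08 to 0.76 and an adjusted p of 0.186, or 0.0609 with the number set as a term. The 2 array types gave log2 differences for Cfb within 1 SE of each other.

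Old controls also had more signal from macrophage and fibroblast markers than young controls, and in bulk RNA fewer cells of a type and less RNA per cell cannot be told apart. Of 8 tested macrophage markers, 5 rose with age, among them Lyz2, a lysozyme gene of macrophages, by 1.67 ± 0.30 on the log2 scale (adjusted p = 0.00183). Of the 8, 7 had positive differences, while Cd14 gave -0.19 (adjusted p = 0.675). The summed intensity of the 11 macrophage marker genes on the arrays ranged from 22555 to 37733 in calorie-restricted kidneys, 41932 to 53243 in old controls and 22314 to 33784 in young controls. Old controls lay above both other groups without overlap, while the defining macrophage genes Adgre1 and Csf1r lay under the floor on every array and Cd68 gave a log2 difference of 0.33 between old and young controls (adjusted p = 0.468). The 8 fibroblast genes summed to 7923 to 18407 in calorie-restricted kidneys, 12696 to 21863 in old controls and 3316 to 10474 in young controls, and 1 of 4 tested, the matrix gene Dcn, rose with age. The part of these cells in the rises of Cp, Serping1 and the C4 probe set was not tested.

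The antibody-making cells and the liver and fat cells were looked at in the same way. The 6 plasma and B cell genes summed to 24639 to 50649.9 in calorie-restricted kidneys, 87729 to 183350 in old controls and 19664 to 28997 in young controls. Of 5 tested, 3 rose with age and 3 fell with the diet, the IgA heavy chain gene Igha in both. The B cell genes Ms4a1 and Cd79b had log2 age differences of -0.09 (adjusted p = 0.864) and 0.28 (0.367). Their diet differences were -0.28 (0.496) and -0.36 (0.262). Ms4a1 averaged 19697 in young controls and so made up most of the young sums. The 5 hepatocyte genes summed to 2396 to 4942 in calorie-restricted kidneys, 1595 to 4338 in old controls and 1285 to 37944 in young controls, where the highest is young control 5. That kidney had the lowest Serping1 of all 15, and its Cp value lay under the floor, as did those of young controls 3 and 4. The 7 fat cell genes summed to 9106 to 23416 in calorie-restricted kidneys, 11849 to 24367 in old controls and 11861 to 17044 in young controls, and 0 of 4 tested were called in either comparison by limma (0 at an unadjusted p under 0.05).

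**Figure D2:**
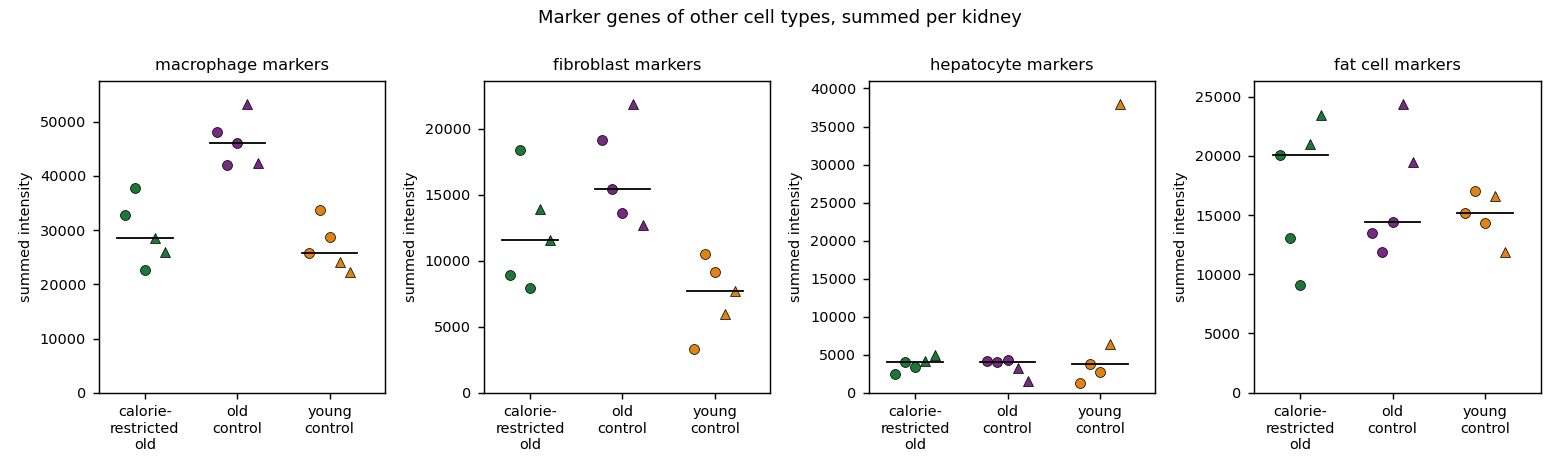
Summed intensity (vertical axes, each from 0) of the marker genes of macrophages, fibroblasts, hepatocytes and fat cells in each kidney of the calorie-restricted old, old control and young control groups, with a line at the group median and symbols for the kidney numbers (circles 1 to 3, triangles 4 and 5). Macrophage sums of old controls (41932 to 53243) lie above those of both other groups, and 1 young control kidney has a hepatocyte sum of 37944.

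The second comparison asked whether the diet lowers these genes in old kidneys. None of the 5 tested probe sets passed, while 1.7% of all 4518 tested were called lower, 0.907% higher and 2.61% in either direction. The C4 probe set and Serping1 had the most negative differences, and they were the 2 of 5 with an unadjusted limma p under 0.05, which 14.6% of all tested probe sets had. The median log2 difference of the 5 was -0.29, with 3 negative and 2 positive, against 0.03 over all tested probe sets. This comparison shares the old controls with the age comparison, so a high or low old control moves both in opposite directions.

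The C4 probe set averaged 2671 ± 862 in calorie-restricted kidneys and 4537 ± 1464 in old controls, a log2 difference of -0.77 with a 95% interval of -1.31 to -0.23 (limma adjusted p = 0.151). Serping1 averaged 6078 ± 631 in calorie-restricted kidneys and 8622 ± 1541 in old controls, a log2 difference of -0.49 with an interval of -0.79 to -0.19 (adjusted p = 0.0856). Both 95% intervals lie below 0, and neither difference passed over the whole table. Serping1 did pass without old control 5, the low old control, with a log2 difference of -0.61 and an adjusted p of 0.0134. With the number set as a term, Serping1 (adjusted p = 0.0466) and the C4 probe set (0.0348) were called lower at the same sizes.

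Macrophage markers were lower in calorie-restricted kidneys in the same comparison, with 2 of 8 tested genes that fell, the cathepsin gene Ctss by 1.26 on the log2 scale (adjusted p = 0.000483) and the C1q chain gene C1qb. Lyz2 had a log2 diet difference of -0.92 (adjusted p = 0.142) and Cd68 one of -0.34 (0.482). Of the fibroblast genes, Col3a1 had -0.57 (0.132), and 1 of 3 Col1a1 probe sets was called higher, by 1.07 (0.0240), while the others gave -0.39 and 0.48. The part of these cells in the diet differences of Serping1 and the C4 probe set was not tested.

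Cp and Cfb had smaller differences. Cp averaged 3378 ± 826 in calorie-restricted kidneys and 4156 ± 1188 in old controls, a log2 difference of -0.29 with an interval of -0.70 to 0.13 (adjusted p = 0.534). Cfb on the first table averaged 11561 ± 1168 in calorie-restricted kidneys and 10627 ± 1807 in old controls, a log2 difference of 0.13 with an interval of -0.17 to 0.44 (adjusted p = 0.717). On the second table Cfb averaged 15148 ± 2062 in calorie-restricted kidneys and 12896 ± 2765 in old controls, a log2 difference of 0.25 with an interval of -0.09 to 0.59 (adjusted p = 0.505). Cfb was thus the gene with positive differences on both array types, within the spread between kidneys.

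The third comparison, which the labels do not name, set calorie-restricted old kidneys against young controls. Cp and Cfb were higher in calorie-restricted kidneys, and Serping1 and the C4 probe set did not pass. This is 3 of 5 probe sets called higher, 2 of them of Cfb, against 2.94% of all tested (2.77% lower and 5.71% in either direction). The share over all tested again includes the second-table targets with several probe sets. Cp had a log2 difference of 0.79 ± 0.20 (SE) with a limma adjusted p of 0.0233, and without young control 5 these were 0.77 and 0.0511. Cfb had log2 differences of 0.59 ± 0.14 (adjusted p = 0.0199) on the first table and 0.67 ± 0.16 (0.0182) on the second.

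The difference between these Cfb values and those of old controls against young controls is the diet comparison, which did not pass on either table. Serping1 had a log2 difference of 0.31 with an interval of 0.01 to 0.60 (adjusted p = 0.264), and the C4 probe set one of 0.23 with an interval of -0.31 to 0.77 (adjusted p = 0.700). The calls of this comparison hung on single kidneys. Cp lost its call without calorie-restricted kidney 3 (adjusted p = 0.0660) or 5 (0.0675) or young control 3 (0.0583), Cfb on the first table without calorie-restricted 3 (0.0530) or 5 (0.0565) or young control 2 (0.0675) or 3 (0.0519), and on the second without calorie-restricted 5 (0.0565) or young control 1 (0.0511) or 2 (0.0584).

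**Figure D3:**
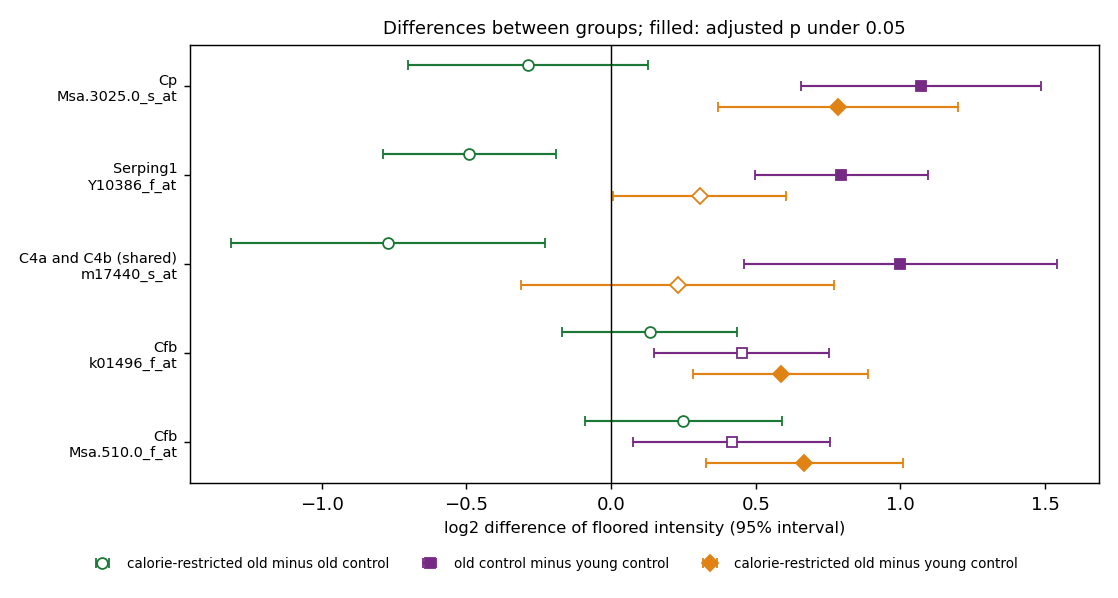
Log2 difference of floored intensity (horizontal axis) with its 95% interval for the 5 tested probe sets, in 3 comparisons: calorie-restricted old minus old control (circles), old control minus young control (squares) and calorie-restricted old minus young control (diamonds), with filled symbols for an adjusted p under 0.05. No diet difference is filled, the age differences of Cp, Serping1 and the C4 probe set are, and the Cfb diet differences lie to the right of 0.

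The kidneys split by number within groups. The leading component of the deviations from the group means held 37.3% of their variance and set kidneys 1 to 3 apart from 4 and 5, and the labels do not record what the numbers stand for. Within kidneys 1 to 3 and within 4 and 5 the log2 age differences were 0.93 and 1.28 for Cp, 0.80 and 0.79 for Serping1, and 0.89 and 1.17 for the C4 probe set. The log2 diet differences in kidneys 1 to 3 and in 4 and 5 were -0.56 and -0.38 for Serping1, -0.66 and -0.94 for the C4 probe set and -0.27 and -0.31 for Cp. These 3 genes thus had the same sign in both sets. Cfb on the first table had a log2 diet difference of 0.27 in kidneys 1 to 3 and -0.07 in 4 and 5, so its sign differed, while on the second table it had 0.29 and 0.19, with the same sign.

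The rest of the pathway was described from lists of gene names, with the brightest tested probe set of each gene. Of 19 further complement component genes, 8 were on the arrays and 2 were tested, C1ra and C2, while C9, Cfp, Hc, Masp1 and Mbl2 lay under the floor on every array and C8g was above it on at most 3. Neither of the 2 passed in either comparison by limma, nor had either an unadjusted p under 0.05. C2, the classical pathway counterpart of factor B, averaged 2406 ± 119 in calorie-restricted kidneys, 2023 ± 995 in old controls and 1617 ± 153 in young controls. C1ra, a protease of the C1 complex, had a log2 difference of 0.40 with age (adjusted p = 0.520) and -0.19 with the diet (0.805).

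Of 17 complement regulator and receptor genes, 10 were on the arrays and 3 were tested: Clu, Cr1l and Cd59a. None passed by limma, with 1 of 3 at an unadjusted p under 0.05 in each of the age and diet comparisons. Clu encodes clusterin, a chaperone that also binds the terminal complement complex. It averaged 9799 ± 2815 in calorie-restricted kidneys, 12325 ± 4150 in old controls and 6622 ± 1182 in young controls, with a log2 age difference of 0.85 ± 0.24 (adjusted p = 0.0561) and a diet difference of -0.32 (0.580). Cr1l, the rodent membrane inhibitor known as Crry, averaged 2921 ± 267 in calorie-restricted kidneys, 3844 ± 495 in old controls and 3632 ± 451 in young controls, with a log2 diet difference of -0.39 (adjusted p = 0.141) and an age difference of 0.08 (0.809). Cd59a, which blocks the terminal complex, had log2 differences of 0.11 with age (0.847) and 0.21 with the diet (0.680). The receptor and regulator genes C3ar1, C4bp, Cd55, Cfi, Cr2, Itgb2 and Vtn lay under the floor on every array.

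Of 36 further acute phase protein genes, 25 were on the arrays and 8 were tested. With age 0 of 8 passed (1 at an unadjusted p under 0.05), and with the diet 1 fell, Rbp4, with 5 of 8 at an unadjusted p under 0.05. The median log2 difference of the 8 was 0.05 with age and -0.45 with the diet, against -0.04 and 0.03 over all tested probe sets. Rbp4 encodes the plasma retinol carrier, which falls in plasma in the acute phase. Its intensities (U63146_s_at) were 2085, 3031, 2506, 2935 and 2012 in calorie-restricted kidneys, 3142, 4319, 3978, 3232 and 4217 in old controls, and 3143, 3940, 3159, 3746 and 3891 in young controls. Every calorie-restricted kidney lay below every kidney of both other groups, with a log2 diet difference of -0.60 ± 0.15 (SE) and a limma adjusted p of 0.0468. This call lies just under the threshold, and whether it holds with a kidney left out was not tested.

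The metallothionein genes Mt1 and Mt2, which bind metals, had log2 diet differences of -0.76 (adjusted p = 0.287) and -0.43 (0.274) and age differences of 0.23 (0.792) and 0.26 (0.540). Pzp had log2 differences of -0.81 with the diet (adjusted p = 0.164) and -0.13 with age (0.871). It lay above the floor in 0 of 5 calorie-restricted kidneys, 3 of 5 old controls and 5 of 5 young controls. Lcn2 had a log2 age difference of 0.59 (adjusted p = 0.0835) and a diet difference of -0.47, and neither passed. It lay above the floor in 4, 5 and 0 kidneys of these groups, so these floored differences are no exact sizes. Itih1, a heavy chain of the inter-alpha-trypsin inhibitor, had log2 differences of -0.45 with age (0.373) and 0.26 with the diet (0.645). Further acute phase genes under the floor on every array were Saa3, Crp, Apcs, Fgg, Hamp, Hpx and Serpina3n. The 2 probe sets of Serpina1a, an antitrypsin gene, belong to targets of the second table that have several probe sets. Among such pairs that differed by over 1 on the log2 scale in both groups compared, 25 of 25 stood in the opposite order of intensity in old and young kidneys and 0 of 24 in calorie-restricted and old control kidneys, so no age value is read from Serpina1a. Its log2 diet differences were 0.61 (adjusted p = 0.146) and 0.60 (0.413).

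The second-table probe sets of Cp, Serping1, Cfb and Hp are each the only one of their target, outside that class. Over 100 other genes read on both tables by such single probe sets, the log2 age differences of the 2 tables correlated with r = 0.805 and the diet differences with r = 0.795, across genes that are not independent replicates. In calorie-restricted kidneys against young controls r was 0.869 over all of them, 0.922 over 66 genes with the suffix f, which Serping1 and Cfb carry, and 0.434 over 36 with the suffix s, which Cp and Hp carry, so the 2 tables matched less well there for probe sets of the kind that reads Cp.

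Of 26 genes of acute phase signalling, 21 were on the arrays and 5 were tested, of which 1 rose with age, Stat3, and 0 passed with the diet (1 at an unadjusted p under 0.05). Stat3 is the transcription factor that carries the interleukin 6 signal to acute phase genes in liver cells. Its intensities on the brighter probe set (u06922_s_at) were 5092, 4006, 4673, 4552 and 4788 in calorie-restricted kidneys, 5184, 6927, 6099, 6686 and 4853 in old controls, and 3829.5, 3612, 3907, 3900.3 and 3538 in young controls. Old controls did not overlap young controls, and the log2 age difference was 0.65 ± 0.12 (limma adjusted p = 0.00306). Its diet difference was -0.35 ± 0.12 (adjusted p = 0.184), and the dimmer probe set gave 0.55 with age (0.324) and -0.44 with the diet (0.479).

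Tnfrsf1a, a receptor for tumour necrosis factor, averaged 2387 ± 282 in calorie-restricted kidneys, 1840 ± 751 in old controls and 854 ± 638 in young controls, and was higher in calorie-restricted kidneys than in young controls by 0.92 on the log2 scale (adjusted p = 0.0113). Of the 5 young controls 3 lay under the floor, so this floored difference is smaller than the unfloored values would give and is no exact size. With age it had a log2 difference of 0.56 (adjusted p = 0.163) and with the diet one of 0.36 (0.452). Ifngr1, a chain of the interferon gamma receptor, had log2 differences of 0.48 with age (0.0726) and -0.11 with the diet (0.793). The NF-kB subunit gene Rela had 0.19 with age (0.571) and 0.10 with the diet (0.80), and the NF-kB inhibitor gene Nfkbia 0.06 (0.881) and 0.22 (0.496). The cytokine genes Il6, Il1b and Tnf and the feedback inhibitor gene Socs3 lay under the floor on every array.

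**Figure D4:**
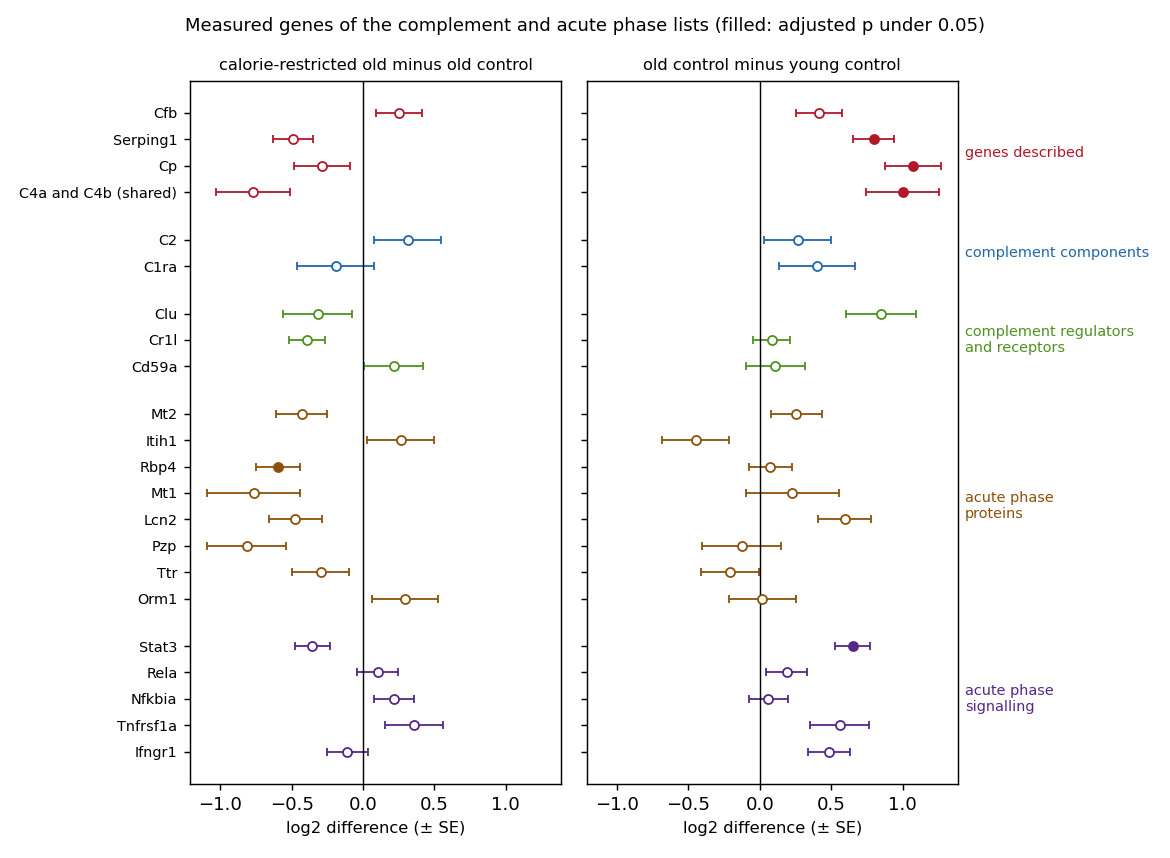
Log2 difference of floored intensity ± SE (horizontal axes) of each tested gene of the complement and acute phase lists, by its brightest probe set, for calorie-restricted old minus old control (left) and old control minus young control (right), with filled symbols for an adjusted p under 0.05. Filled symbols are Rbp4 on the left, at -0.60, and Cp, Serping1, the C4 probe set and Stat3 on the right, between 0.65 and 1.07.

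The 3 named genes whose log2 intensities were most like those of each gene over all 15 kidneys were found by Pearson's r, given here as a description since kidneys share their group and number set. For the C4 probe set they were Ly6e (0.861), Fcer1g (0.858) and Flot1 (0.855). The r of the deviations from the group means, which leaves out the differences between groups, was 0.671, 0.729 and 0.852 for these. Among these 3, Flot1 thus varied most like the C4 probe set within groups, and no other gene was compared in this way. For Cfb on the second table they were Gldc (0.897), Aldh1a1 (0.883) and Rexo1 (0.850), with 0.789, 0.722 and 0.676 within groups.

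For Serping1 they were Mgp (0.911), Ctss (0.910) and Lyz2 (0.890), with 0.598, 0.587 and 0.617 within groups. Ctss and Lyz2 are on the macrophage marker list, as is Fcer1g. For Cp they were Stat3 (0.856), Wwc1 (0.823) and Cx3cl1 (0.802), with 0.574, 0.574 and 0.166 within groups. The likeness of Cx3cl1 to Cp was thus mostly one between group means.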

How the data were processed

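Intensity values per probe set were used as deposited by the authors. The software and background step behind them: not given in the sources used here. Groups and numbers came from sample titles. The genes, pathway lists and marker lists were chosen with earlier results of these data known.

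Trimmed means (2% off each end) of the arrays of a table were brought to their average by factors of 0.997 to 1.01, values were raised to the floor and log2 was taken. Left out were 122 control probe sets and 77 probe sets blank on some array. Of the rest, 2609 of the first and 1909 of the second table were above the floor on at least 5 arrays and were tested. Annotation gave 7561 probe sets 1 gene symbol, 7544 of them updated by gene number through RefSeq, 224 several and 5394 none. The files name no genome build.

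One limma 3.58.1 model (lmFit and eBayes, R 4.3.3) held the 3 groups, and Benjamini-Hochberg adjustment ran over all tested probe sets of both tables. The script was tested on simulated data with known changes. Tables were made with Python 3.11.15 and figures with matplotlib 3.10.9. Same-numbered kidneys of old and young controls deviated together (r of 0.221 to 0.496), but 0 of 5 matched their own number best. The labels do not pair kidneys across groups, and this model did not pair them, while the replicate block, an alternative named below, did. In calorie-restricted and old control kidneys this r was -0.012 to 0.404, with 2 of 5 matching their own number best. In calorie-restricted and young control kidneys it was 0.070 to 0.409, with 3 of 5.

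Named are all probe sets of the 7 genes, list genes past the threshold with age or diet, and up to 4 further tested genes per pathway list of highest mean level. Also named are acute phase proteins at an unadjusted p under 0.05, the 3 most like genes of each gene, and defining and some other markers of other cell types. Alternatives were no further scaling, quantile normalization, other floors and filters, an asinh transform, trend and robust moderation, adjustment within tables, fits of only the groups compared, the replicate block, the number set as a term or each set alone, leaving out each kidney, and leaving out probe sets of the second table by suffix. Leaving out targets with several such probe sets was added after seeing the data.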

Additional observations from a re-analysis of the deposited data

Results flagged for a closer look

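Among 24 probe sets and 72 groups examined, 4 groups of 5 kidneys had 1 kidney far from the others, measured as its gap to the nearest kidney over the range of the group, where chance gives about 1 in 20. In young controls the highest C1ra value stood at a log2 intensity of 11.04, against 10.24 for the nearest (gap over range 0.86), and the highest Itih1 value at 12.67, against 11.94 (0.739). In calorie-restricted kidneys the lowest value of the brighter Nfkbia probe set stood at 11.66, against 11.88 (0.811). In calorie-restricted kidneys 1 Mt1 value lay at 11.12 and the other 4 at the floor, 10.83 (gap over range 1). None of these is a probe set of Cp, Serping1, C4, Cfb or Hp.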

How the results depend on the processing

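The age rises kept their sign in every alternative run, and calls were lost in 2 of 29 for Cp (kidneys 1 to 3 alone, adjusted p = 0.0865, and 4 and 5 alone, 0.109), in 1 of 30 for Serping1 (4 and 5 alone, 0.210) and in 9 of 31 for the C4 probe set, which include no filter (0.118). With the floor doubled, Cp was above it on 4 arrays and was no longer tested, so its calls ended there too. Against the 3 probe sets called with age, 1 was called in kidneys 1 to 3 alone and 0 in 4 and 5 alone, where fewer kidneys enter, 2 to 4 with a kidney left out, and 0 without the i, f, s and r probe sets of the second table, which removes Cp and Serping1 themselves and left the C4 probe set at 0.0504. With the diet 1 probe set was called under the replicate block (the C4 probe set, adjusted p = 0.0135), 2 with the number set as a term and 0 to 1 with a kidney left out. Against young controls 0 were called in calorie-restricted kidneys of numbers 1 to 3 alone or 4 and 5 alone, 1 without those suffixes and 0 to 3 with a kidney left out. Calls there were lost in 7 of 29 alternatives for Cp and in 6 of 31 and 5 of 30 for Cfb on the first and second table. The diet difference of Cfb on the first table turned to -0.074 in kidneys 4 and 5 alone. Over all probe sets, counts called with age were 146 in kidneys 4 and 5 alone, 62 without the suffixes, 150 without targets of several such probe sets, 277 under the replicate block and 179 to 254 with a kidney left out, against 233. With the diet they were 68 with no filter, 50 with a filter of 10 arrays, 72 with only the groups compared, 224 with the number set as a term, 253 in kidneys 1 to 3 alone, 9 in 4 and 5 alone, 32 without the suffixes and 73 to 133 with a kidney left out, where 73 is without calorie-restricted kidney 1 and 78 without 5, against 118. In calorie-restricted against young kidneys they were 439 with the number set as a term, 104 in kidneys 4 and 5 alone, 110 without the suffixes, 169 without targets of several such probe sets and 195 to 266 with a kidney left out, against 258. Where no cause is named it was not tested. The replicate block changed no other call of the probe sets of Cp, Serping1, C4 and Cfb. Calls of list genes, Rbp4 and Stat3 among them, were not followed in the alternatives. Values of Hp, and of Cp and Tnfrsf1a in most young controls, lie under the floor, which limits what their intensities can show.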
